A study of Homo sapiens with 18 samples.

Results

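The genes described here are 34 known transcriptional targets of p53, taken as the rows of a table of 63677 genes whose Ensembl identifiers map to a fixed list of symbols, and all 34 symbols were matched. They were measured in 18 RNA-seq libraries of NCI-H1299, a human lung cancer line labelled lung adenocarcinoma and used at passage 12 to 14. Each of 4 groups received a plasmid encoding TBX2, TBX3, TBX4 or TBX5, the T-box transcription factors of the TBX2 subfamily, and was measured in 3 libraries. Per the study's methods, the TBX5 plasmid carries the mouse gene and the other 3 are human. TBX3 and TBX5 were carried in HA-tagged pCGN plasmids, and TBX2 and TBX4 in Flag-tagged pORF plasmids. Where groups differ in backbone and tag, that difference cannot be told apart from the TBX gene. The controls were an empty vector group (EV, 3 libraries) and a group titled Ctl (3 libraries), for which the labels name no treatment. The sample titles do not name the backbone of the empty vector. All 6 groups share the parental line and its lack of p53, the overexpression was transient, and nothing in the labels says that the 3 libraries of a group came from separate cultures, so p-values measure the spread between these libraries, which may be technical. The title of the third TBX4 library carries the TBX4 group number but ends in TBX5, and that library held 85197 counts on TBX4 and 1 count on TBX5.

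p53 is a transcription factor that is stabilised by DNA damage and other stresses and then activates genes for cell-cycle arrest, DNA repair, metabolism and cell death, together with genes such as MDM2 and PPM1D whose products switch it off again. NCI-H1299 cells make no p53 protein, so the levels below are those of p53 targets in cells without p53. Many of these genes also answer to other factors, among them p63, p73, ATF4 and the AP-1 proteins, and TBX2 and TBX3 are known mainly as transcriptional repressors, whereas TBX4 and TBX5 are known mainly as activators.

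p53 binds a pair of 10-base sites, each made of purines, a central core read as CATG, CTTG or the like, and pyrimidines. RefSeq promoter windows (GRCh38.p14, 250 bases before to 50 bases after the gene start) were found for 28 of the 34 genes. The 6 without a window were GADD45A, RRM2B, TP53INP1, TNFRSF10B, PHLDA3 and FBXO22. The p53 decamer, searched on both strands, was present in the windows of PLK2, EI24, AEN and FDXR, which is 4 of 28 (14.3%), against 6.54% of 27305 promoters. A pair of decamers separated by at most 13 bases was present in 0 of 28 windows and in 0.0293% of promoters. The T-box sequence GGTGTGA was found in 0 of 28 windows and in 3.43% of promoters, the AP-1 sequence TGACTCA in those of PERP and BBC3 (7.14%, against 4.92%), and the CRE sequence TGACGTCA in that of PPM1D (3.57%, against 1.98%). The search pattern of the decamer is the same on both strands, though a matched sequence need not be, and so is the CRE sequence. Each such match was therefore found on both strands and counted once, and no match shared bases with that of another motif. A match is a description of the sequence, and its absence says only that these letters are not in this window. The 250 bases before the gene start are printed below, 5′ to 3′ on the strand of the gene, for the 4 genes with a decamer, because these genes moved in different directions, and for PPM1D, because it changed most with TBX3. Capitals mark the decamer, or the CRE sequence in PPM1D.
PLK2, chr5:58460087-58460336, minus strand: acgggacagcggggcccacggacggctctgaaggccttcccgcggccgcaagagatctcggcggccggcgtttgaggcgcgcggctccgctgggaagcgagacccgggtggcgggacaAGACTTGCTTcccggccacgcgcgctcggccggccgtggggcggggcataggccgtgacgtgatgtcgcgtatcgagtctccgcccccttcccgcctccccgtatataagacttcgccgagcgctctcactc
EI24, chr11:125569227-125569476, plus strand: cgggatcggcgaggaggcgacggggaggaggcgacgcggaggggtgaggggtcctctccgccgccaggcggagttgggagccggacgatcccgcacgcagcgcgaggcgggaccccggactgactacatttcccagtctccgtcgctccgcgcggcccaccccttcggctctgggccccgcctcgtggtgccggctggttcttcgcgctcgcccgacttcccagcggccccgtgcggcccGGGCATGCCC
AEN, chr15:88621090-88621339, plus strand: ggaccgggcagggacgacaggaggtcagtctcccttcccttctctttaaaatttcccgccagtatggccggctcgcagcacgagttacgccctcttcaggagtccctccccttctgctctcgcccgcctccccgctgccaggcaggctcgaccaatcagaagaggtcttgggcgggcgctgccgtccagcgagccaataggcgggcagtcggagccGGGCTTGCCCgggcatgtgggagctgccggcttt
FDXR, chr17:74872995-74873244, minus strand: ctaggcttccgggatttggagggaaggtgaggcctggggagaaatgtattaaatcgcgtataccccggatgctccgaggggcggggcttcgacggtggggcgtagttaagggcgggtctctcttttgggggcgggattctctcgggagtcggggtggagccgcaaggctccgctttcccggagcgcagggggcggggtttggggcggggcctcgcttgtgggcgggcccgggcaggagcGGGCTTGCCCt
PPM1D, chr17:60599943-60600192, plus strand: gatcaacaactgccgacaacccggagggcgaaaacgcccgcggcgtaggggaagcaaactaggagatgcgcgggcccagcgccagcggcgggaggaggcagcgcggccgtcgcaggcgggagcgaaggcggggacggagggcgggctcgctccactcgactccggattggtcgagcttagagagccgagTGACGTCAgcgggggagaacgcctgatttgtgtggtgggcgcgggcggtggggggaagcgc

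The decamer lay 132 to 123 bases before the gene start in PLK2, 10 to 1 bases before it in EI24, 34 to 25 in AEN and 11 to 2 in FDXR. As shown further on, PLK2, AEN and FDXR were each higher in at least 1 TBX group and EI24 was lower in 3.

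Libraries held 7365221 to 11743179 counts, and 15576 genes had more than 5 counts in at least 10 libraries and were tested. A gene without a symbol, ENSG00000266658, took 10.7% to 53.5% of the counts of a library, so levels are given as CPM, the share of a library's counts that fell on a gene, scaled by the TMM method of edgeR. The overexpressed gene reached 4086 to 4821 CPM in the TBX2 libraries, 17745 to 25411 CPM for TBX3, 7543 to 8497 CPM for TBX4 and 129 to 242 CPM for TBX5, where no control exceeded 4.83 CPM. Reads of the mouse TBX5 plasmid were counted on the human gene, so that value is not a level comparable with the other 3. Of the epithelial markers, KRT8 (19.3 to 52.7 CPM) and KRT18 (43.2 to 75.8 CPM) were present in every library, but NKX2-1, SFTPB, SFTPC, EPCAM and CDH1 had 0 to 9 counts, NAPSA 1 to 10 and KRT7 1 to 28, so the defining markers of lung adenocarcinoma were at or near 0. KRT8 was lower with TBX2 (-0.79), TBX3 (-0.45) and TBX4 (-0.23) and higher with TBX5 (0.26), KRT18 was lower with TBX2 (-0.56) and TBX3 (-0.41), and KRT7 was higher with TBX2 (1.37). The part of such shifts in the results below was not tested, and in bulk libraries fewer cells of a kind and less RNA per cell cannot be told apart. The 5 matched leukocyte, endothelial and fibroblast markers had 0 to 7 counts.

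Most of the targets were expressed although p53 is missing. Of the 34 genes, 32 passed the filter, and SPATA18, a mitochondrial quality control gene, and PHLDA3, a repressor of AKT signalling, did not. SPATA18 had 1 count in each of 2 TBX4 libraries and 0 in the other 16, and PHLDA3 had 0 to 2 counts. Both were below the 3 counts taken as the floor of detection, which equals 0.191 to 0.595 CPM. In the 6 controls the highest level per kilobase of exon was that of CCNG1, cyclin G1, at 50.5 CPM per kb. It was followed by EI24, an endoplasmic reticulum protein linked to autophagy, at 17.4 CPM per kb, PLK2 at 11.6, MDM2 at 10.7 and GADD45A at 10.6. The levels per kilobase of PLK2, MDM2 and GADD45A overlapped between control libraries. BBC3, which encodes the death protein PUMA, stood at 0.459 CPM per kb and the antiproliferative gene BTG2 at 0.207. BTG2 had 3 to 14 counts in a library and BBC3 6 to 24, so only large changes of either could be seen.

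**Figure D1:**
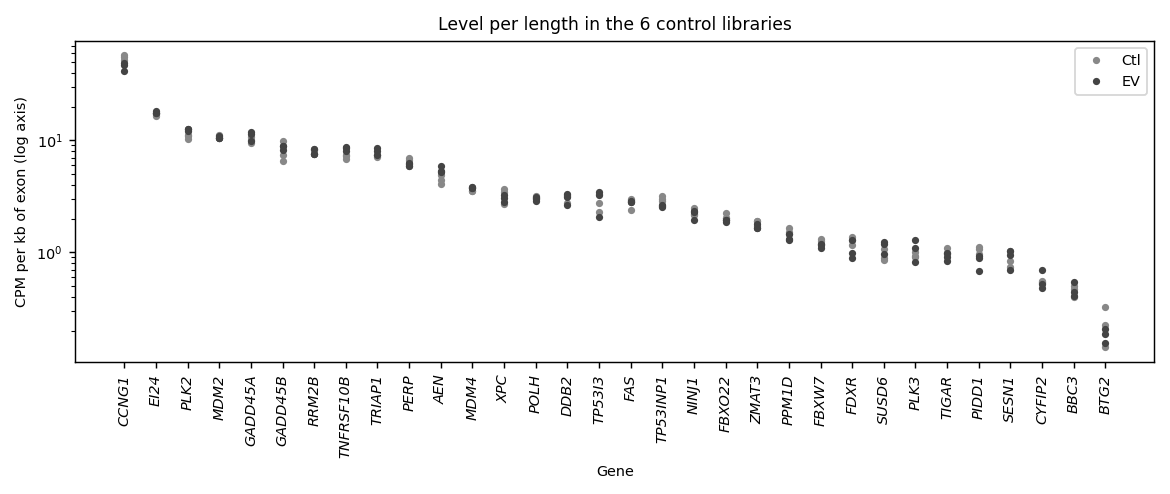
Level of the 32 tested p53 targets in the 3 Ctl and 3 EV libraries, in CPM per kilobase of exon on a log axis, 1 point per library, with genes in order of their mean. CCNG1 stands apart at 50.5 CPM per kb, and BTG2 is lowest at 0.207.

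Of the other members of the p53 family, TP63 had 0 to 4 counts, at most 0.459 CPM, and TP73 had 13 to 52 counts. With TBX2, TP73 fell by 0.45 (SE 0.195, adjusted p = 0.0929, edgeR), although its libraries overlapped those of the controls.

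The first comparison asked whether the empty vector alone moved the targets. Of the 32 tested genes, 0 passed an adjusted p under 0.1 between EV and Ctl in edgeR, against 0.385% of all tested genes. DESeq2 also called 0. The EV libraries lay all above the Ctl libraries for 5 targets and all below for 6, as they did for 7.68% and 6.84% of all genes. At an unadjusted p under 0.05 there were 5 (TP53INP1, PLK2, TNFRSF10B, CCNG1 and AEN), or 15.6%, beside 9.19% of all genes, and their differences were as large as several of those reported for the TBX groups. AEN, a nuclease that fragments DNA in apoptosis, stood at 29.6, 24.1 and 26.7 CPM in the Ctl libraries and 31.4, 31.9 and 35.5 CPM in the EV libraries. The EV libraries were all above the Ctl libraries, with a difference of 0.31 (SE 0.0845, adjusted p = 0.184). For CCNG1 the EV libraries (147, 128 and 153 CPM) were all below the Ctl libraries (178, 172 and 160 CPM), by 0.25 on the log2 scale (SE 0.0664, adjusted p = 0.170). AEN passed the threshold (as higher) when Ctl replicate a was left out, and CCNG1 (as lower) when Ctl replicate c was left out or no filter was used, each being the 1 gene called.

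The second set of comparisons asked which targets moved with each TBX, against the 6 pooled controls. The 4 contrasts share these 6 libraries, so their values are set side by side and are not independent. With TBX2, 10 of 32 passed (31.2%), 6 higher and 4 lower, where 32.6% of all tested genes passed, 17.0% higher and 15.6% lower. The TBX3 contrast called 11 (34.4%), 9 higher and 2 lower, where 14.9% of all genes passed, 8.47% higher and 6.40% lower. With TBX4 there were 3 (9.38%), 1 higher and 2 lower, beside 13.0% of all genes, 6.97% higher and 6.07% lower. With TBX5 there were 4 (12.5%), 3 higher and 1 lower, beside 12.7% of all genes, 6.55% higher and 6.12% lower. The median log2 fold change of the 32 genes was 0.01, 0.07, -0.03 and -0.03 in the 4 contrasts, and that of all tested genes lay between -0.0058 and -0.0013. The 3 TBX3 libraries were all above the 6 controls for 7 of the targets, where this held for 8.38% of all genes, and all below for 0, where it held for 6.14%. The same counts were 4 above and 2 below with TBX2 (12.9% and 11.6% of all genes), 0 and 4 with TBX4 (6.84% and 5.74%) and 4 and 2 with TBX5 (7.48% and 6.55%). Against EV alone the calls were 8, 9, 1 and 2 for TBX2 to TBX5, beside 26.7%, 12.2%, 9.27% and 8.97% of all genes, and against Ctl alone 8, 8, 3 and 3, beside 25.8%, 10.7%, 11.6% and 7.65%. Called with pooled controls, EV alone and Ctl alone were 3 targets with TBX2 (CCNG1, EI24 and GADD45A), 6 with TBX3 (GADD45A, GADD45B, MDM4, PLK2, PPM1D and TNFRSF10B), 0 with TBX4 and 1 with TBX5 (RRM2B). The share of all tested genes called under all 3 choices was not computed, so these counts have no background beside them.

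Scaling by library totals, which lets ENSG00000266658 into the denominator, shifted the median log2 fold change of all genes to 0.25 with TBX4, -0.31 with TBX5 and 0.20 for EV against Ctl. Under it the calls among the 32 targets were 1 higher and 0 lower with TBX2, 0 with TBX3, 5 higher and 0 lower with TBX4, and 0 with TBX5. With library totals that leave that gene out, TBX5 called 2 higher and 2 lower. Over all genes, the split of higher and lower calls moved from 1319 and 997 to 867 and 1709 with TBX3, from 1086 and 945 to 895 and 1242 with TBX4 and from 1021 and 954 to 795 and 1212 with TBX5 when that gene was left out of the totals. With full totals it was 833 and 223 with TBX2 (2651 and 2428 under TMM), 35 and 0 with TBX3, 2756 and 33 with TBX4, and 38 and 55 with TBX5.

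**Figure D2:**
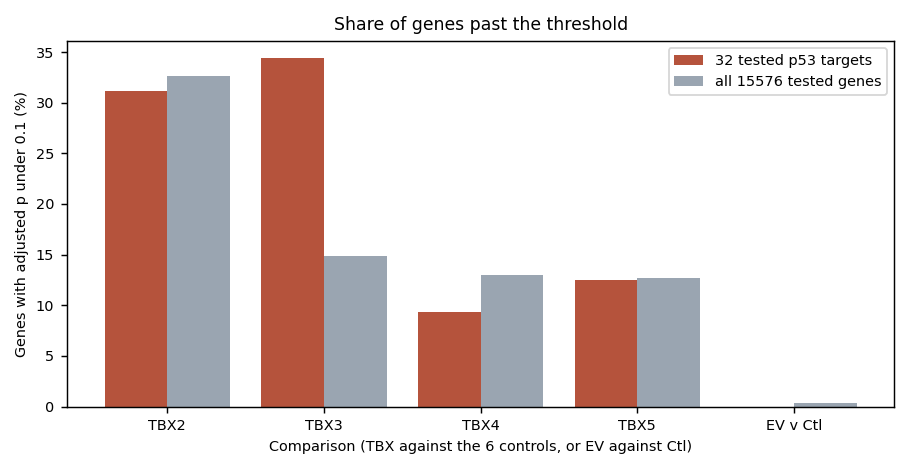
Percent of genes with an adjusted p under 0.1 among the 32 tested p53 targets (red) and all 15576 tested genes (grey) in each comparison, on an axis that starts at 0. The shares are close with TBX2 (31.2% and 32.6%) and TBX5 (12.5% and 12.7%) and differ with TBX3 (34.4% and 14.9%).

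No target passed in all 4 contrasts. Among the 32, 17 passed in none (53.1%, beside 55.7% of all tested genes), 4 in 1 (12.5%, beside 25.4%), 9 in 2 (28.1%, beside 11.3%), 2 in 3 (6.25%, beside 5.10%) and 0 in all 4 (beside 2.48%). In both directions there were 0, beside 0.828% of all genes. The 5 that were higher with both TBX2 and TBX3 (15.6%, beside 4.69%) were MDM4, GADD45A, GADD45B, TNFRSF10B and PPM1D.

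**Figure D3:**
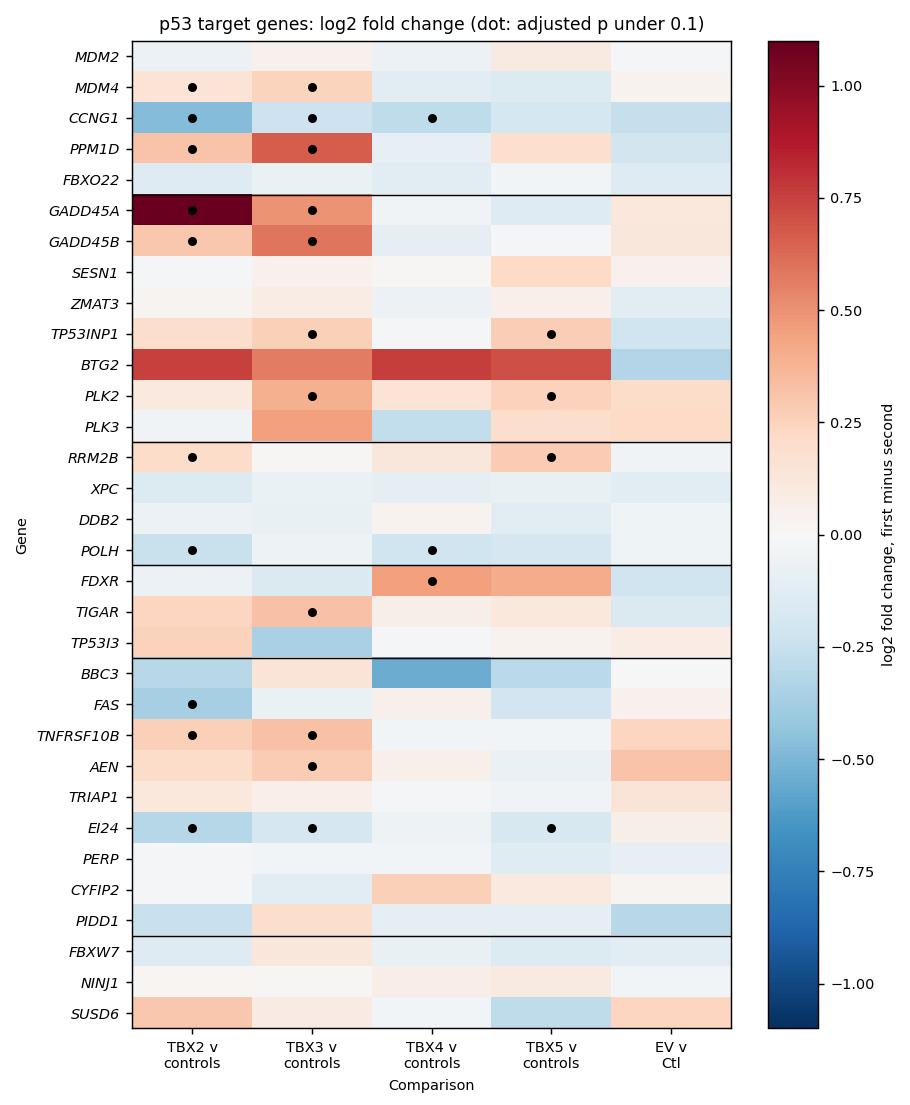
Log2 fold change of the 32 tested p53 targets (rows, grouped by role between the lines) in 5 comparisons (columns), with a dot where the adjusted p was under 0.1. The largest change is that of GADD45A with TBX2 (1.09), and the EV against Ctl column holds no dot.

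The genes whose products restrain p53 split in direction. MDM2, the ubiquitin ligase that degrades p53 and the best known p53 target, passed in no contrast. It stood at 89.0 ± 2.19 CPM in the controls (SD, n = 6) and 82.3 to 103 CPM in the TBX libraries. Its log2 fold change was -0.06 with TBX2 (95% interval -0.19 to 0.06), 0.04 with TBX3 (-0.07 to 0.15), -0.07 with TBX4 (-0.17 to 0.04) and 0.10 with TBX5 (-0.02 to 0.22).

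MDM4 (ENSG00000198625, chromosome 1, 204485507 to 204527248, plus strand, GRCh37 as for all genes below), which binds p53 and blocks its activity, was higher with TBX2 and TBX3. It stood at 42.5, 39.1 and 39.2 CPM in the Ctl and 41.1, 42.2 and 41.0 CPM in the EV libraries. The TBX3 libraries (49.4, 48.3 and 47.5 CPM) were all above the controls, a rise of 0.24 (SE 0.0600, adjusted p = 0.0101). The TBX2 libraries (48.3, 42.4 and 45.6 CPM) overlapped them by 1 library, and the rise of 0.15 (SE 0.0660, adjusted p = 0.0947) was near the threshold. That TBX2 call was lost without Ctl b (adjusted p = 0.163), Ctl c (0.134), EV a (0.120), EV c (0.121), TBX2 a (0.375) or TBX2 c (0.165). In the TBX4 (37.4, 38.3 and 38.0 CPM) and TBX5 (37.2, 35.5 and 37.4 CPM) libraries every value lay below the controls, with adjusted p = 0.271 and 0.172.

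PPM1D (ENSG00000170836, chromosome 17, 58677554 to 58743641, plus strand), which encodes the phosphatase WIP1 that dephosphorylates p53 and its kinases, had the largest change of any target with TBX3. It stood at 13.7, 15.5 and 14.4 CPM in the Ctl, 13.7, 12.0 and 12.4 CPM in the EV and 21.0, 25.5 and 19.5 CPM in the TBX3 libraries. The groups did not overlap, and PPM1D rose by 0.67 (SE 0.0975, adjusted p = 7.03e-05). With TBX2 it rose by 0.31 (16.4, 18.4 and 15.6 CPM, SE 0.0995, adjusted p = 0.0223), a call lost without TBX2 b (adjusted p = 0.161). Against Ctl alone the TBX2 call did not hold, and the unadjusted p (edgeR) was not under 0.05. In the TBX4 (13.1, 12.1 and 13.2 CPM) and TBX5 (15.5, 15.5 and 15.6 CPM) libraries it did not pass.

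CCNG1 (ENSG00000113328, chromosome 5, 162864575 to 162873157, plus strand), which recruits a phosphatase to MDM2, was lower in 3 contrasts. It read 109, 113 and 116 CPM with TBX2, below every control, and fell by 0.48 (SE 0.0806, adjusted p = 0.000119). With TBX4 (139, 123 and 127 CPM) it fell by 0.28 (SE 0.0738, adjusted p = 0.0177) and with TBX3 (132, 127 and 142 CPM) by 0.22 (SE 0.0769, adjusted p = 0.0647), and both groups overlapped the EV libraries. The TBX4 call was lost without TBX4 b (adjusted p = 0.140), and the TBX3 call without Ctl a (0.124), Ctl b (0.114), TBX3 a (0.189) or TBX3 b (0.234). Against the EV libraries alone, CCNG1 passed with TBX2 (-0.34, adjusted p = 0.00355) and not with TBX3 or TBX4, and the part of the EV and Ctl difference in these calls was not tested. FBXO22, a ubiquitin ligase subunit that also acts on p53, passed in no contrast, at 20.6 to 26.6 CPM over all libraries.

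Among the genes of growth arrest and stress response, GADD45A and GADD45B, small proteins that bind PCNA and stress kinases, had the largest changes that passed. GADD45A (ENSG00000116717, chromosome 1, 68150884 to 68154017, plus strand) stood at 18.1, 19.3 and 20.7 CPM in the Ctl and 23.0, 21.9 and 19.0 CPM in the EV libraries. It reached 41.6, 38.2 and 50.8 CPM with TBX2, above every other library in the series, and rose by 1.09 (SE 0.0885, adjusted p = 4.37e-09). With TBX3 it read 22.9, 33.8 and 28.8 CPM, of which the lowest fell within the controls, and rose by 0.49 (SE 0.0956, adjusted p = 0.00149). The TBX4 (17.4, 19.1 and 23.1 CPM) and TBX5 (18.1, 20.2 and 16.7 CPM) libraries overlapped the controls, with log2 fold changes of -0.04 and -0.15 that did not pass. Both calls held with each library left out and against either control alone, and the TBX2 call also held under library totals (1.09, adjusted p = 4.20e-07).

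GADD45B (ENSG00000099860, chromosome 19, 2476120 to 2478257, plus strand) stood at 14.1, 16.0 and 21.1 CPM in the Ctl and 17.5, 18.9 and 19.1 CPM in the EV libraries, and its rise was the larger with TBX3. There it read 21.9, 30.5 and 27.8 CPM, all above the controls, and rose by 0.58 (SE 0.105, adjusted p = 0.000682). With TBX2 (20.4, 26.0 and 18.2 CPM) it rose by 0.29 (SE 0.115, adjusted p = 0.0637) and overlapped the controls. That call was lost without Ctl a (adjusted p = 0.119), Ctl b (0.112) or TBX2 b (0.526). It read 17.1, 16.1 and 16.7 CPM with TBX4 and 16.9, 15.5 and 20.7 CPM with TBX5, within the controls.

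PLK2 (ENSG00000145632, chromosome 5, 57749809 to 57755966, minus strand), a polo-like kinase that acts at centrosomes and in stress signalling, was higher with TBX3 and TBX5. It stood at 52.2, 48.2 and 50.6 CPM in the Ctl, 56.0, 58.9 and 58.6 CPM in the EV, 66.8, 69.1 and 75.6 CPM in the TBX3 and 65.4, 63.9 and 64.4 CPM in the TBX5 libraries. Both TBX groups lay above every control, and PLK2 rose by 0.39 with TBX3 (SE 0.0681, adjusted p = 0.000523) and by 0.25 with TBX5 (SE 0.0708, adjusted p = 0.0283). Under library totals its TBX5 value was -0.06, where the median of all genes was -0.31. The EV libraries lay above the Ctl libraries by 0.20 (SE 0.0650, adjusted p = 0.285), and against EV alone only the TBX3 call held among these 2 (0.29, adjusted p = 0.0102). With TBX2 (54.3, 63.4 and 56.5 CPM) and TBX4 (64.7, 58.6 and 57.7 CPM) it did not pass.

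TP53INP1 (ENSG00000164938, chromosome 8, 95938200 to 95961606, minus strand), a stress protein of autophagy and cell death, was higher with TBX3 and TBX5 by small amounts. It read 18.04, 16.1 and 17.0 CPM in the Ctl, 15.0, 14.6 and 14.4 CPM in the EV, 19.3, 18.7 and 18.9 CPM in the TBX3 and 20.1, 18.7 and 18.1 CPM in the TBX5 libraries. Both TBX groups lay above every control, by 0.26 (SE 0.0888, adjusted p = 0.0583) and 0.27 (SE 0.0990, adjusted p = 0.0984), but under library totals the TBX5 value was -0.03, where the median of all genes was -0.31. The EV libraries lay all below the Ctl libraries. Against Ctl alone neither call held, and the unadjusted p (edgeR) was not under 0.05 with TBX3 or with TBX5. The TBX3 call was lost without EV b (adjusted p = 0.101), EV c (0.130), TBX3 a (0.155), TBX3 b (0.117) or TBX3 c (0.166). The TBX5 call was lost without Ctl b (0.119), EV a (0.149), EV b (0.152), EV c (0.165), TBX5 a (0.324), TBX5 b (0.164) or TBX5 c (0.144). It read 18.9, 19.6 and 14.9 CPM with TBX2 and 17.1, 14.0 and 16.2 CPM with TBX4 and did not pass. The other 4 of these 8 genes, SESN1, ZMAT3, BTG2 and PLK3, passed in no contrast, and BTG2 showed values of 0.56 to 0.76 in the 4 contrasts with standard errors of 0.318 to 0.451.

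Of the 4 genes of DNA repair and nucleotide supply, RRM2B and POLH passed in 2 contrasts each, in opposite directions. RRM2B (ENSG00000048392, chromosome 8, 103216730 to 103251189, minus strand), the ribonucleotide reductase subunit that supplies nucleotides outside S phase, stood at 45.6, 44.3 and 41.1 CPM in the Ctl and 40.7, 41.1 and 45.0 CPM in the EV libraries. With TBX5 it read 52.8, 51.2 and 52.7 CPM, above every control, and rose by 0.28 (SE 0.0658, adjusted p = 0.00979), though under library totals this value was -0.03, where the median of all genes was -0.31. With TBX2 it read 47.0, 49.0 and 52.9 CPM, again above every control, and rose by 0.20 (SE 0.0670, adjusted p = 0.0298), a call lost without TBX2 c (adjusted p = 0.134). It read 41.5, 44.1 and 44.4 CPM with TBX3 and 46.7, 43.7 and 50.9 CPM with TBX4, overlapping the controls.

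POLH (ENSG00000170734, chromosome 6, 43543922 to 43588260, plus strand), the polymerase that copies past ultraviolet lesions, stood at 25.5, 25.7 and 26.4 CPM in the Ctl and 26.0, 23.8 and 25.2 CPM in the EV libraries. With TBX4 (21.8, 22.3 and 21.7 CPM) all libraries lay below the controls and POLH fell by 0.22 (SE 0.0678, adjusted p = 0.0429), but under library totals the value was 0.04, where the median of all genes was 0.25. With TBX2 (20.4, 20.0 and 24.8 CPM) it fell by 0.24 (SE 0.0817, adjusted p = 0.0321) and overlapped the controls. The TBX4 call was lost without TBX4 a (adjusted p = 0.147), TBX4 b (0.106) or TBX4 c (0.140), and the TBX2 call without TBX2 a (0.145) or TBX2 b (0.183). It read 24.1, 25.8 and 24.0 CPM with TBX3 and 22.5, 24.4 and 20.3 CPM with TBX5. The nucleotide excision repair genes XPC and DDB2 passed in no contrast, and 24.6% of the exon bases of XPC are shared with other genes.

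In metabolism and redox, FDXR, a mitochondrial reductase that passes electrons to ferredoxin, was higher with TBX4 by 0.45 (SE 0.149, adjusted p = 0.0557). It read 4.81, 6.31 and 6.39 CPM there and 3.20 to 4.90 CPM in the controls, and the call was lost without EV a (adjusted p = 0.106), EV b (0.103), TBX4 b (0.225) or TBX4 c (0.192). TIGAR, which lowers glycolytic flux, was higher with TBX3 by 0.32 (SE 0.107, adjusted p = 0.0559), where its 10.5, 11.9 and 11.5 CPM lay above the controls (7.84 to 10.3 CPM). The TIGAR call was lost without EV b (adjusted p = 0.102), EV c (0.104), TBX3 b (0.164) or TBX3 c (0.207), and 19.4% of its exon bases are shared with other genes. The quinone reductase gene TP53I3 passed in no contrast with the controls.

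Of the 9 tested genes of death receptors, apoptosis and mitochondrial quality, 4 passed in at least 1 contrast with the controls. This is near the share of all tested genes, of which 55.7% passed in none. TNFRSF10B (ENSG00000120889, chromosome 8, 22877646 to 22926544, minus strand), the TRAIL receptor DR5, was higher with TBX2 and TBX3. It stood at 37.1, 33.9 and 36.4 CPM in the Ctl, 43.4, 43.0 and 40.3 CPM in the EV, 44.1, 44.9 and 51.9 CPM in the TBX2 and 47.6, 48.1 and 50.1 CPM in the TBX3 libraries. Both TBX groups lay above every control, by 0.26 (SE 0.0810, adjusted p = 0.0200) and 0.32 (SE 0.0732, adjusted p = 0.00557). The EV libraries lay above the Ctl libraries by 0.24 (SE 0.0710, adjusted p = 0.243). Against EV alone the TBX3 call held (0.21, adjusted p = 0.0688) and the TBX2 call did not, and the TBX2 call was also lost without TBX2 c (adjusted p = 0.124). With TBX4 (36.4, 36.9 and 41.8 CPM) and TBX5 (43.1, 33.3 and 36.3 CPM) it overlapped the controls and did not pass.

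EI24 (ENSG00000149547, chromosome 11, 125439176 to 125454579, plus strand) moved the other way. It stood at 57.6, 59.8 and 60.8 CPM in the Ctl and 61.6, 63.3 and 61.4 CPM in the EV libraries. With TBX2 (47.3, 47.5 and 52.8 CPM) it lay below every control and fell by 0.31 (SE 0.0636, adjusted p = 0.000865). It fell by 0.18 with TBX3 (57.8, 48.7 and 53.9 CPM, SE 0.0620, adjusted p = 0.0631) and by 0.17 with TBX5 (55.3, 51.6 and 54.5 CPM, SE 0.0622, adjusted p = 0.0878). The TBX3 call was lost without EV b (adjusted p = 0.109), TBX3 b (0.306) or TBX3 c (0.128). The TBX5 call was lost with any library left out except Ctl a, namely Ctl b (0.108), Ctl c (0.114), EV a (0.129), EV b (0.151), EV c (0.125), TBX5 a (0.122), TBX5 b (0.271) and TBX5 c (0.192). With TBX4 (61.2, 55.9 and 58.6 CPM) it did not pass.

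FAS, the death receptor for FAS ligand, fell by 0.37 with TBX2 (SE 0.122, adjusted p = 0.0293), at 8.84, 7.35 and 6.82 CPM against 8.43 to 10.7 CPM in the controls. That call was lost without TBX2 b (adjusted p = 0.124) or TBX2 c (0.123), and 25.7% of the exon bases of FAS are shared with other genes. AEN rose by 0.28 with TBX3 (SE 0.0894, adjusted p = 0.0492), at 36.6, 35.2 and 36.9 CPM, which overlapped the EV libraries. It did not pass against EV alone, and the call was lost without TBX3 a (adjusted p = 0.136) or TBX3 c (0.168). BBC3, TRIAP1, PERP, CYFIP2 and PIDD1 passed in no contrast, and neither did FBXW7, NINJ1 and SUSD6 among the genes of other roles.

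**Figure D4:**
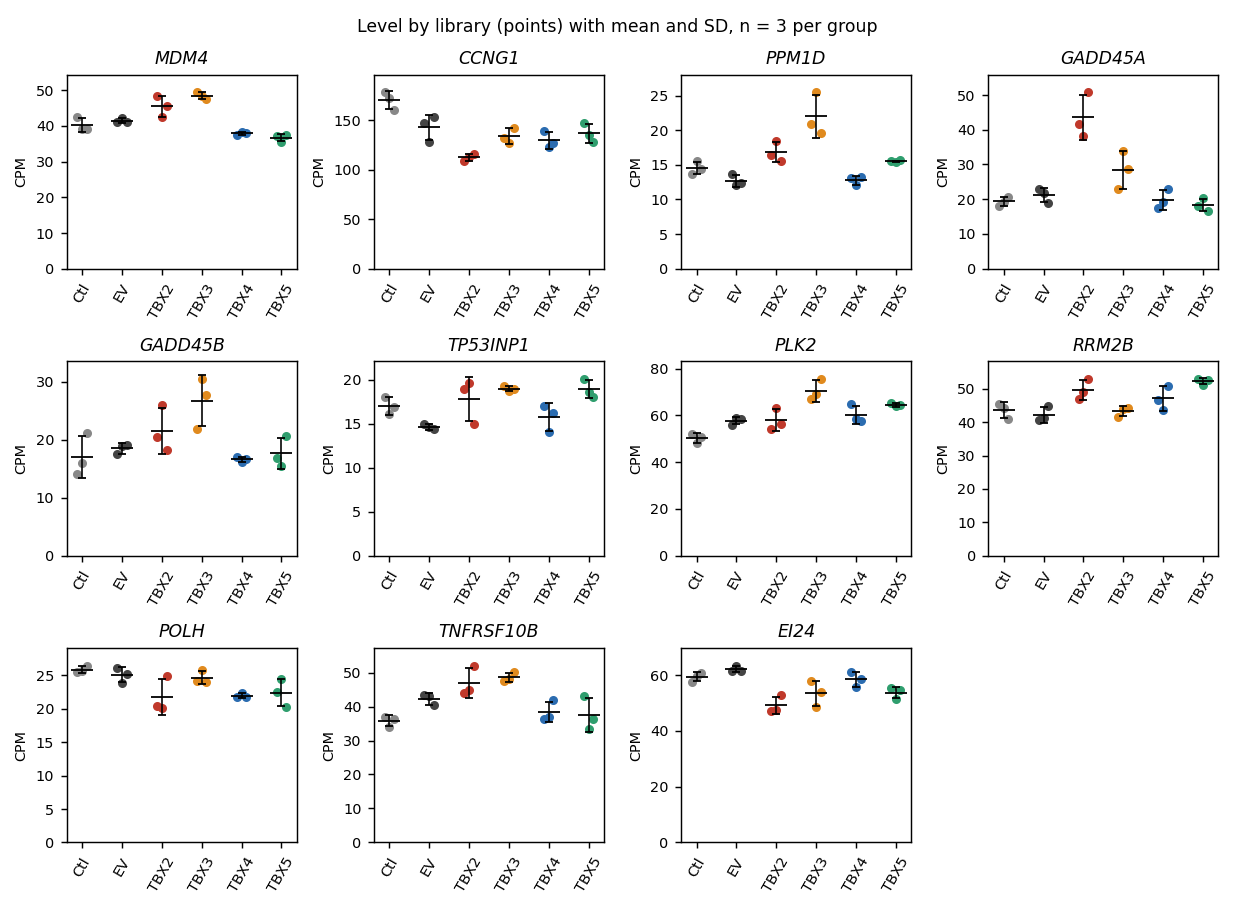
Level in CPM of the 11 targets that passed in at least 2 TBX contrasts, 1 point per library, with the mean and SD of each group (n = 3) as a bar, on axes that start at 0. GADD45A in the TBX2 libraries (38.2 to 50.8 CPM) stands above every other library, and CCNG1 is highest in the Ctl libraries (160 to 178 CPM).

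The third set of comparisons asked whether the TBX groups differed from each other, in 1 fit of all libraries. Except for TBX2 against TBX4 and TBX3 against TBX5, the pairs also differ in plasmid backbone and tag. Over the 4 groups, 13 of the 32 targets differed (40.6%), beside 22.7% of all tested genes. In at least 1 of the 6 pairs 15 targets passed. The share of all genes over the 6 pairs was not computed, so that count has no background beside it. TBX2 against TBX3 called 5 targets, 2 higher and 3 lower with TBX2, beside 15.5% of all genes, 8.01% higher and 7.51% lower. TBX2 against TBX4 called 8 targets, 5 higher and 3 lower with TBX2, beside 12.3% of all genes, 6.66% higher and 5.61% lower. TBX2 against TBX5 called 6 targets, 5 higher and 1 lower with TBX2, beside 12.1% of all genes, 6.45% higher and 5.69% lower. TBX3 against TBX4 called 8 targets, 7 higher and 1 lower with TBX3, beside 9.97% of all genes, 5.95% higher and 4.02% lower. TBX3 against TBX5 called 7 targets, 6 higher and 1 lower with TBX3, beside 7.41% of all genes, 4.30% higher and 3.11% lower. Between TBX4 and TBX5 edgeR called 0, beside 0.539% of all genes (0.109% higher and 0.430% lower), and 4 had an unadjusted p under 0.05 (MDM2, RRM2B, TP53INP1 and PPM1D), or 12.5%, beside 8.10% of all genes.

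MDM4, GADD45A and TNFRSF10B were higher in TBX2 and in TBX3 than in TBX4 and in TBX5, in all 4 contrasts, which held for 0.661% of all tested genes, and 0 targets were lower in all 4, which held for 0.347%. These 3 were picked out after their values were seen. For MDM4 the differences ran from 0.26 (TBX2 against TBX4, SE 0.0679, adjusted p = 0.0151) to 0.40 (TBX3 against TBX5, SE 0.0723, adjusted p = 0.000949). For GADD45A they ran from 0.52 (TBX3 against TBX4, SE 0.121, adjusted p = 0.00783) to 1.23 (TBX2 against TBX5, SE 0.131, adjusted p = 1.06e-07). For TNFRSF10B they ran from 0.29 (TBX2 against TBX4, SE 0.0835, adjusted p = 0.0310) to 0.35 (TBX3 against TBX5, SE 0.0886, adjusted p = 0.0156).

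GADD45A, PPM1D, PLK2 and CCNG1 also differed between TBX2 and TBX3. GADD45A was 0.60 higher with TBX2 than with TBX3 (SE 0.115, adjusted p = 0.000773), with no overlap of libraries. PPM1D was lower with TBX2 than with TBX3 by 0.35 (SE 0.103, adjusted p = 0.0244), and PLK2 by 0.28 (SE 0.0720, adjusted p = 0.00955). CCNG1 was lower with TBX2 than with each of the other 3 TBX genes, by 0.25 against TBX3 (SE 0.0750, adjusted p = 0.0270), 0.20 against TBX4 (SE 0.0742, adjusted p = 0.0912) and 0.29 against TBX5 (SE 0.0762, adjusted p = 0.0170). RRM2B was lower with TBX3 than with TBX5 by 0.27 (SE 0.0769, adjusted p = 0.0385).

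Some targets that passed against no control group, or against 1, differed between TBX groups. PLK3, a stress kinase, was 0.72 higher with TBX3 than with TBX4 (SE 0.213, adjusted p = 0.0415). TP53I3 was 0.60 higher with TBX2 than with TBX3 (SE 0.201, adjusted p = 0.0512) and SUSD6, a membrane protein, 0.57 higher with TBX2 than with TBX5 (SE 0.187, adjusted p = 0.0577). FDXR was lower with TBX3 than with TBX4 by 0.62 (SE 0.198, adjusted p = 0.0603). In each of these 4 the libraries did not overlap.

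**Figure D5:**
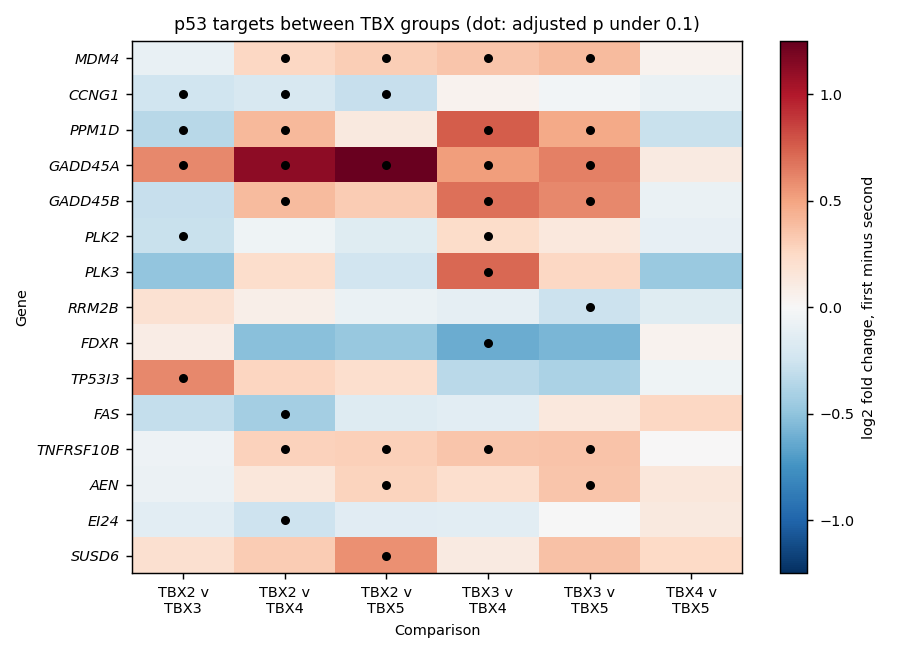
Log2 fold change between pairs of TBX groups for the 15 targets that passed in at least 1 pair, first group minus second, with a dot where the adjusted p was under 0.1. MDM4, GADD45A and TNFRSF10B carry dots in all 4 middle columns, and TBX4 against TBX5 holds no dot.

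Other targets of p53 give the setting for these genes. Of a second list of 41, 36 were tested, and 13 were higher and 6 lower with TBX2, 6 and 3 with TBX3, 4 and 3 with TBX4, and 8 and 3 with TBX5. These are 52.8%, 25.0%, 19.4% and 30.6% of the list, beside 32.6%, 14.9%, 13.0% and 12.7% of all genes. Their median log2 fold change was 0.14, 0.08, 0.06 and 0.15. CDKN1A, the p21 inhibitor of cyclin-dependent kinases, stood at 11.4 to 13.1 CPM in the Ctl and 16.8 to 18.2 CPM in the EV libraries. Between EV and Ctl, 4 of the 36 passed (11.1%, beside 0.385% of all genes), all higher with EV and CDKN1A, PMAIP1 and SESN2 among them, so the TBX contrasts of these genes rest on controls that differ. CDKN1A rose by 0.82 with TBX5 (SE 0.143, adjusted p = 0.000779), where it read 21.0 to 31.2 CPM. CDKN1A also passed as higher with TBX2 (0.394, SE 0.127) and with TBX4 (0.496, SE 0.118). In these TBX groups every library lay above the controls, but the lowest TBX4 library (18.24 CPM) was close to the highest EV library (18.16 CPM). Against EV alone, 0 of the 36 genes passed as higher with TBX4, so the TBX4 call of CDKN1A did not hold there. With TBX3 it did not pass (0.210, SE 0.131), and the libraries overlapped the controls. SESN2, a stress-induced inhibitor of mTORC1, had the largest rise of the list with TBX2 (1.77, SE 0.131, adjusted p = 9.87e-10) and with TBX3 (1.56, SE 0.140, adjusted p = 5.30e-08), and stood 0.61 higher in the EV than in the Ctl libraries. RRAD, a small GTPase, rose most with TBX5 (1.65, SE 0.249, adjusted p = 0.000166).

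Of 28 tested members of the p53 family and its upstream regulators, 2 were higher and 9 lower with TBX2, 7 and 4 with TBX3, 1 and 3 with TBX4, and 0 and 4 with TBX5. These are 39.3%, 39.3%, 14.3% and 14.3% of the list, beside 32.6%, 14.9%, 13.0% and 12.7% of all genes. With TBX2 the largest fall that passed was that of TP73, given above, and the largest rise that of PPP1R13L, an inhibitor of p53, by 0.30 (SE 0.123, adjusted p = 0.0783). With TBX3 the largest rise that passed was that of DYRK2, a p53 kinase, by 0.46 (SE 0.0792, adjusted p = 0.000444) and the largest fall that of PRKDC, a DNA damage kinase, by 0.24 (SE 0.0649, adjusted p = 0.0185). With TBX4 they were those of RCHY1, a ubiquitin ligase for p53, at 0.24 (SE 0.0899, adjusted p = 0.0974) and of TRIM24 at -0.22 (SE 0.0700, adjusted p = 0.0428). With TBX5 the largest fall that passed was that of CDKN2A, whose locus encodes the MDM2 inhibitor ARF, by 0.33 (SE 0.0960, adjusted p = 0.0372).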

How the data were processed

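RNA-seq was read from the 18 libraries described above. The authors aligned paired reads to GRCh37 with STAR 2.3.0 (per the labels), used featureCounts, unmodified, to assign them to Ensembl genes, and deposited raw counts with no normalization or filter. Gene symbols and coordinates came from the GENCODE annotation on GRCh37. Groups and replicate letters came from the sample titles, and 0 sample columns were left out. A gene was kept if over 5 counts fell on it in 10 or more of 18 libraries. Each TBX was compared with the 6 pooled controls, and EV with Ctl, by edgeR 4.0.16 (quasi-likelihood test, TMM scaling, Benjamini-Hochberg over all tested genes, threshold 0.1) in R 4.3.3. The TBX groups were compared in 1 fit of all libraries. Standard errors were derived from the log2 fold change and its F statistic. Alternatives were DESeq2 1.42.0, other scalings, filters, thresholds, controls, a replicate block and each library left out. The members and the gene lists were chosen with earlier results of these data known. Full values are given for targets that passed in at least 2 TBX contrasts, single values for the rest, and for the other lists the largest changes and CDKN1A, TP63 and TP73. Results for some genes of these lists are not reported here. PMAIP1, and AEN and CCNG1 in EV against Ctl, were named after their values were seen. The methods were tested on simulated data. Depth limits precision: 3 counts, the floor used, equal 0.191 to 0.595 CPM, which covers counting error only. Without strand information, reads of overlapping genes cannot be told apart. Other assays of the study were not analysed here.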

Additional observations from a re-analysis of the deposited data

Results flagged for a closer look

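The 4 TBX groups differed in the level of 13 of the 32 targets (40.6%) by the test over the groups (edgeR, Benjamini-Hochberg adjusted). Of all tested genes, 22.7% differed by this test. The adjusted p was 3.17e-08 for GADD45A, 3.87e-05 for PPM1D, 0.000193 for MDM4, 0.00115 for GADD45B and 0.00324 for TNFRSF10B. It was 0.0226 for PLK2, 0.0303 for CCNG1, 0.0506 for AEN, 0.0537 for FDXR, 0.0616 for EI24, 0.0634 for RRM2B, 0.0795 for PLK3 and 0.0917 for FAS.

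In the 6 control libraries, 1 library stood apart from the others for 2 of 32 targets. FAS was low in Ctl b, with a gap of 0.725 of the whole range, and CYFIP2 was high in EV a, with a gap of 0.644, both above Dixon's critical value for 6 samples. Chance flags about 1 in 20 groups.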

How the results depend on the processing

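Of the 28 calls of a target in a TBX contrast, 11 held with each library left out in turn. All 28 held with at least 10 counts in every library and in 1 fit of all libraries, 27 with DESeq2's size factors, 23 with library totals without the most counted gene, 21 with no filter, 20 with DESeq2, 19 at a threshold of 0.05, 18 with EV alone and 18 with Ctl alone. Library totals kept 2, and 4 reversed: POLH with TBX4 (0.0434), RRM2B with TBX5 (-0.0311), TP53INP1 with TBX5 (-0.0278) and PLK2 with TBX5 (-0.0593). Counts of targets that moved were, with library totals, 1 (TBX2), 0 (TBX3), 5 (TBX4), 0 (TBX5) and 1 for the TBX groups with each other. With DESeq2 they were 1 (TBX4), 2 (TBX5) and 7 (the TBX groups, likelihood ratio test). At a threshold of 0.05 they were 7 (TBX3), 2 (TBX5) and 7 (the TBX groups), and with EV alone 1 (TBX4) and 2 (TBX5). No filter gave 1 for EV against Ctl, and library totals without the most counted gene 7 for the TBX groups. The cause was not tested. For most of these counts, and for those with a library left out, the share of all tested genes is not given here. Whether all genes moved alike cannot be read from them. With a library left out the counts ran from 7 to 11 (TBX2), 7 to 11 (TBX3), 0 to 4 (TBX4, 0 without TBX4 b and 1 without TBX4 c), 2 to 4 (TBX5), 0 to 1 (EV against Ctl) and 9 to 14 (the TBX groups). Same-lettered libraries of different groups did not deviate together on average over all tested genes (mean r = -0.0023 over 45 pairs, range -0.14 to 0.25). A correlation over all genes cannot exclude a pairing that touches few of them. The replicate block gave 2 calls with TBX5, 25 of the 28 calls held with it, and other counts stayed within 1.5 times. Low counts limit BTG2 and BBC3, and PHLDA3 and SPATA18 could not be tested.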
